A study of Mus musculus with 38 samples.

Results

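The genes described here encode the machinery that brings new proteins into the endoplasmic reticulum (ER) and attaches N-linked sugars to them. There were 48 of them among the 22401 genes with a coding transcript: 6 of the signal recognition particle (SRP), 2 of its receptor, 6 of the Sec61 channel and its partners, 4 of the translocon-associated protein complex (TRAP), 5 of signal peptidase, 10 of oligosaccharyltransferase, 2 of the rough ER membrane (Rrbp1 and Ckap4), and 13 that build the lipid-linked sugar (Dpagt1 and the ALG enzymes). They were chosen by name, with no measured value in the rule, though with earlier results of these data known. All 48 passed the filter on low counts in the KCl experiment, where 13019 genes were tested.

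Mouse cortical neurons in primary culture were profiled by PL-Ribo-seq in 38 libraries that form 14 groups. The biotin ligase TurboID tags proteins in its vicinity, streptavidin captures tagged ribosomes, and the stretches of mRNA covered by ribosomes (footprints) are sequenced. Every lysate was split into an input, with all of its footprints, and a streptavidin pulldown, which made 19 pairs. The ligase came from a lentivirus and was induced with doxycycline, either as TurboID-PSD95, which elements of PSD95, a postsynaptic scaffold, carry into dendrites, or as Pan-TurboID, which has no such signal. The KCl experiment had both baits, each at rest and in neurons silenced with tetrodotoxin and DL-AP5 for 2 h and then depolarized with 55 mM KCl for 1 h and rested for 30 min, with 3 replicates in each of 8 groups. The DHPG experiment had TurboID-PSD95 neurons silenced in the same way and given DHPG, which activates group I metabotropic glutamate receptors, at 100 µM for 10 min, with 3 inputs and 3 pulldowns. The knockdown experiment had TurboID-PSD95 neurons treated with 20 nM siRNA against the translation initiation factor eIF4G2 for 72 h, resting or depolarized as above, with 2 replicates in each of 4 groups. All neurons received cycloheximide, which halts elongating ribosomes, for 2 min and biotin for 30 min according to the labels. For DHPG the methods of the study give a shorter time of rest with biotin than the labels do. The labels give silencing for KCl and DHPG neurons but none for resting ones. A change with KCl below is therefore one with silencing, KCl and recovery together, which cannot be told apart. DHPG and knockdown were each run without an untreated group of their own among the samples analysed, so that treatment and experiment cannot be told apart and levels are only given side by side across experiments.

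A protein bound for the ER, the cell surface or secretion usually starts with a hydrophobic signal that SRP recognises as it leaves the ribosome. SRP slows elongation and delivers the ribosome to its receptor (Srpr and Srprb) on the ER membrane, where the chain threads through the Sec61 channel, with TRAP bound beside it and signal peptidase cutting off the signal. Oligosaccharyltransferase then transfers a preassembled sugar, which Dpagt1 and the ALG enzymes build step by step on the lipid dolichol, to asparagines of the chain. In neurons this route supplies receptors, ion channels and adhesion molecules, and rough ER reaches from the cell body into dendrites.

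CDS counts per library ran from 2048604 to 14646402 with a median of 5014812, and the 48 genes held 0.451% to 0.652% of them. Neuron markers summed to 6830 to 10605 CPM (CDS counts scaled to 1000000 per library) in the inputs of the KCl experiment. In the same inputs, markers of astrocytes summed to 532 to 1122 CPM, of the oligodendrocyte lineage to 133 to 523 CPM (Mog at 0), of microglia to at most 5.73 CPM (Cx3cr1 at 0) and of endothelial cells to at most 3.19 CPM. The astrocyte sums were 219 to 229 CPM in the DHPG inputs, with S100b at 0, and 594 to 757 CPM in the knockdown inputs. Microglia markers summed to 9.74 to 20.0 CPM in the knockdown inputs, and interneuron markers to 437 to 469 CPM there against 974 to 1673 CPM in the KCl inputs, and the part of such differences in the knockdown values was not tested. Eif4g2, the target of the siRNA, stood at 284 and 284 CPM in the resting and 337 and 323 CPM in the depolarized knockdown inputs, and at 456 to 811 CPM in the inputs of the KCl experiment. The DHPG inputs, also without this siRNA, held 444, 454 and 457 CPM. Knockdown with a control siRNA was not analysed here. In such bulk libraries, fewer cells of a type and less RNA per cell cannot be told apart.

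The members differed widely in length, with coding sequences of 114 nt (Ost4) to 4395 nt (Rrbp1) and a median of 1215 nt. Of the 48, 19 had less than 700 nt. Rrbp1, the ribosome-binding protein 1 of the rough ER, lies on chromosome 2 at 143947395 to 144011263 on the minus strand (mm10), and its long first coding segment (2098 nt) holds a run of a repeated unit of 30 nt. Between CDS positions 610 and 1782 lay 33 copies of it, each with at most 6 differences from the most frequent one, which occurred 9 times. Copies are shown here because footprints within identical copies are not unique in the transcript, and how reads that align in several places were treated is not given in the sources used here. The first line is the most frequent unit (chr2:143989577-143989606), the second the first copy (chr2:143989607-143989636) and the third a copy with 6 differences (chr2:143989004-143989033), all on the minus strand of mm10, read from GENCODE M21 transcripts. The second and the third unit each occurred 1 time. Capitals mark the 11 bases that all 33 copies share.
Rrbp1 most frequent unit: gcccagAAcCAaggcAAgAAgggaGAgGgg
Rrbp1 first copy: gcccagAAcCAggccAAgAAggggGAgGga
Rrbp1 copy with 6 differences: ggccagAAcCAaaccAAgAAggggGAaGga

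Some members cannot be measured on their own. Srp54a, which encodes the SRP subunit that binds signal sequences, has a coding sequence identical over 1515 nt to that of Srp54b and 6 bases away from that of Srp54c, so its counts are uncertain. The Sec61a1 and Sec61a2 coding sequences, which encode alternative pore subunits, are 78.34% identical over 1431 nt and were counted apart. For 10 members another transcript than the longest had a higher count, which mattered most for Alg5 (a 255 nt coding sequence against 975 nt) and Srp19 (123 nt against 435 nt). The coding sequence of Srprb overlaps the gene Gm20425 on the same strand over 810 nt, and 8 members overlap an exon of a gene on the opposite strand, by at most 186 nt (Alg1 with Eef2kmt).

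Levels between genes were compared per kilobase of coding sequence. The resting TurboID-PSD95 inputs were highest for Ssr2, the beta subunit of TRAP, at 431 ± 45.4 CPM per kb (SD, n = 3). Rpn1, a scaffold subunit of oligosaccharyltransferase, followed at 372 ± 36.9, Dad1 of the same complex at 354 ± 94.7, Srp14 at 318 ± 29.9 and Ddost at 278 ± 19.5 CPM per kb, and adjacent genes in this order lay within the sum of their SDs. At the other end stood Alg6 at 3.502 ± 0.780, Alg8 at 4.35 ± 1.36 and Alg13 at 5.53 ± 2.04 CPM per kb, also within the sum of their SDs. Alg2, a mannosyltransferase, stood apart from the other ALG enzymes at 265 ± 17.2 CPM per kb, where the next of them, Alg5, had 67.5 ± 18.5. Another transcript of Alg5 had a longer coding sequence and a higher count, so the place of Alg5 in this order is uncertain. Subunits of the same complex differed as well. The pore subunit Sec61a1 had 200.2 ± 10.6 CPM per kb against 99.8 ± 14.7 for Sec61a2, 138 ± 15.8 for Sec61b and 18.8 ± 8.27 for Sec61g, for which another transcript had a higher count. The catalytic subunits of oligosaccharyltransferase lay within the sum of their SDs, with 47.7 ± 8.99 for Stt3a, which acts on chains as they enter the ER, and 54.9 ± 4.93 for Stt3b, which can act later. Of the oxidoreductase subunits that work with Stt3b, Tusc3 had 204 ± 5.999 and Magt1 21.6 ± 6.33 CPM per kb. The catalytic subunits of signal peptidase, Sec11a and Sec11c, had 69.0 ± 7.10 and 73.7 ± 11.02 CPM per kb.

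Some members lay above and others below their inputs in the pulldowns, and at rest with TurboID-PSD95 the Sec61 channel and oligosaccharyltransferase held calls in both directions, while SRP, TRAP and signal peptidase held lower calls alone. In resting TurboID-PSD95 neurons, 22 of the 48 members passed the quasi-likelihood test of edgeR (FDR of 0.05), 11 higher and 11 lower in the pulldown, where 25.0% of all genes tested were called. The median log2 fold change was 0.05 over the members and −0.05 over all genes. After depolarization 11 members passed, 8 higher and 3 lower, where 12.6% of all genes were called. With Pan-TurboID 10 passed at rest (7 higher and 3 lower, against 9.56% of all genes) and 7 after depolarization (4 higher and 3 lower, against 8.83% of all genes). A term for the shared lysate, which the pairing within the KCl experiment bears out, raised these 4 counts to 33, 25, 29 and 21, where 41.9%, 34.6%, 32.9% and 32.0% of all genes were called with it. Leaving out replicate 3 took all 4 counts to 0, with at most 3 genes called in the whole table, and leaving out replicate 2 took both Pan-TurboID counts to 0 and the resting TurboID-PSD95 count to 10. Without replicate 1 the depolarized TurboID-PSD95 count was 5. In the DHPG pulldowns 39 members passed, 16 higher and 23 lower, where 79.8% of all genes were called. In the knockdown 31 passed at rest (19 higher and 12 lower, against 45.5% of all genes) and 30 after depolarization (14 higher and 16 lower, against 48.8% of all genes). Scaling by library totals alone, an alternative chosen after seeing the data, moved the median of all genes from 0.05 to −0.16 for DHPG, from −0.01 to −0.12 for the resting and from 0.00045 to −0.10 for the depolarized knockdown on the log2 scale, and the fitted fold changes below are relative to the main scaling, while CPM, directions by pair and ratios along the coding sequence use library totals.

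Direction was also read pair by pair. In all, 11 members had more CPM in the pulldown than in the same-numbered input in all 19 pairs, where 10.4% of all genes did: Sec61a1, Sec61a2, Sec63, Stt3a, Stt3b, Rrbp1, Alg2, Alg6, Alg9, Alg10b and Alg11. Another 11 had less in all 19 pairs, where 15.9% of all genes did: Srp9, Srp14, Srp72, Sec61b, Spcs1, Sec11c, Rpn1, Ddost, Dad1, Krtcap2 and Alg5. With the scaling of the fits in place of library totals, an alternative added after seeing the data, the 11 higher members remained (12.1% of all genes), while 9 were lower in all 19 pairs (14.3% of all genes). Rpn1 then lay above its input in 2 pairs, by at most 0.022 on the log2 scale, and Sec11c in 1, by 0.0056. Over the 7 comparisons of a pulldown with its input, Rrbp1, Stt3a, Stt3b and Sec63 were called higher in all 7, no member was called lower in all 7, and Srprb, Spcs3, Tusc3 and Alg13 were called in none. Of the 11792 genes tested in all 7, 2.36% were higher in all 7, 1.06% lower in all 7 and 13.7% called in none. With the block in the 4 comparisons of the KCl experiment, 9 members were higher in all 7 (8.27% of genes), 5 were lower in all 7 (9.32% of genes), namely Srp14, Sec61b, Spcs1, Ddost and Dad1, and 3 were called in none (11.9% of genes). Rpn2, Sec62, Ssr1 and Ssr2 were called in both directions, and so were 2.32% of genes.

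**Figure D1:**
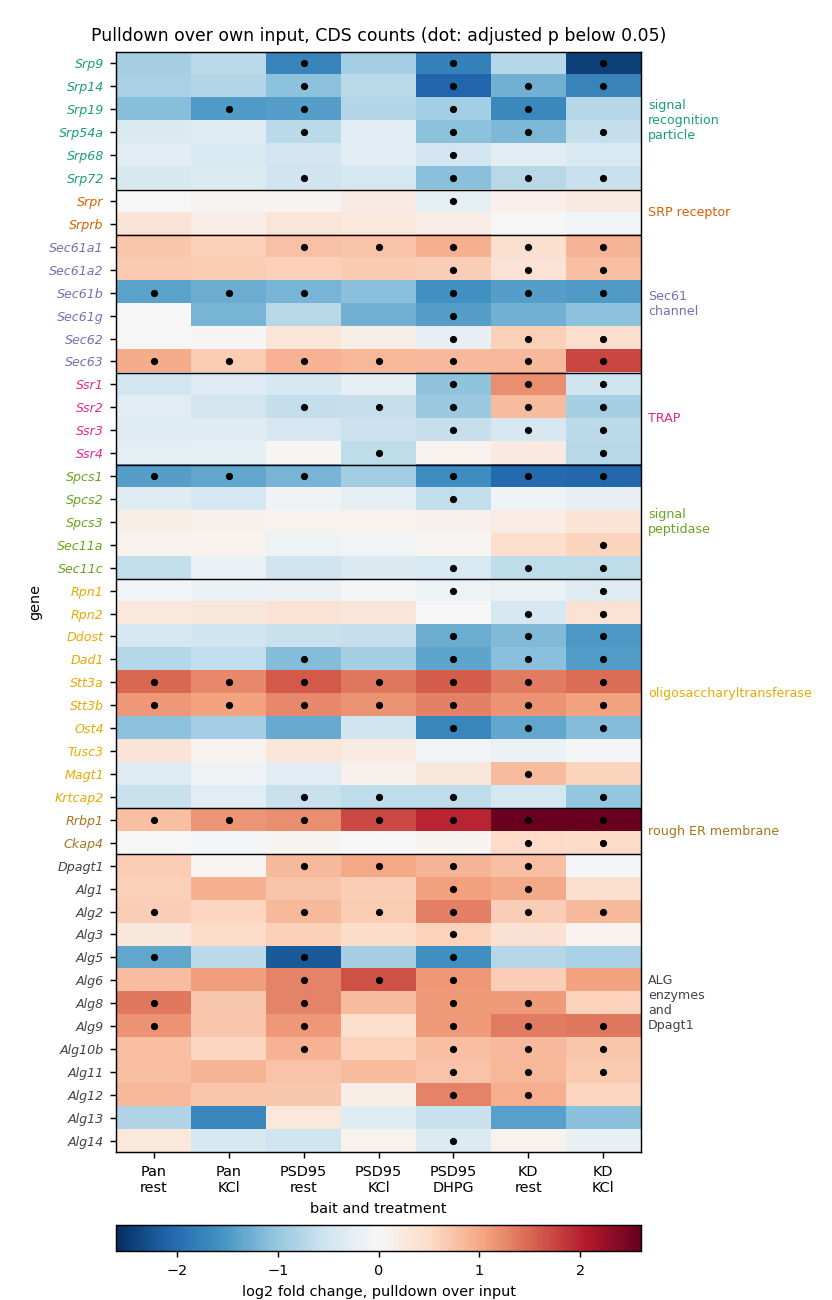
Log2 fold change of pulldown over input (colour) for the 48 members (rows, grouped by complex) in 7 groups (columns, by bait and treatment, with KD for the eIF4G2 knockdown). Dots mark an adjusted p below 0.05 in the fit without a replicate term. The rows of Rrbp1, Stt3a, Stt3b and Sec63 are red with a dot in all 7 columns, and the 6 rows of the signal recognition particle are blue throughout.

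All 6 SRP genes had a fitted log2 fold change below 0 in each of the 7 comparisons under each of the scalings tried, and those past the test were all lower. Unless another comparison is named, values in parentheses are log2 fold changes of pulldown over input with their SE. Srp14, which with Srp9 forms the part that slows elongation, had 108, 115 and 95.1 CPM in the resting TurboID-PSD95 inputs and 52.4, 47.8 and 47.3 CPM in the pulldowns of replicates 1 to 3, so that every pulldown lay below every input. Its log2 fold change was −1.07 ± 0.29 (SE, adjusted p = 0.011). In the DHPG experiment the same gene went from 107, 104 and 158 CPM to 23.7, 26.3 and 25.9 CPM, a log2 fold change of −2.06 ± 0.13 (SE, adjusted p = 1.4e-10). Of the 6, 5 passed at rest with TurboID-PSD95, where 13.5% of all genes were called lower, none after depolarization, none with Pan-TurboID at rest and 1 of 6 (Srp19) with Pan-TurboID after depolarization. With the replicate block these counts were 6, 3 (Srp9, Srp14 and Srp72), 4 (Srp9, Srp14, Srp19 and Srp72) and 2 (Srp14 and Srp19), all lower. In the same order, the block called 41.9%, 34.6%, 32.9% and 32.0% of all genes in either direction. All 6 passed with DHPG, where 39.3% of all genes were called lower and 79.8% in either direction, and 4 of 6 in each knockdown comparison (23.4% of all genes at rest and 24.8% after KCl). With the trend over CDS length removed, Srp19 turned to 0.066 at rest and 0.93 with DHPG. Srp72 is among the longer subunits, with 2016 nt of coding sequence, and was lower as well, at 128, 135 and 119.8 CPM in resting inputs and 91.3, 90.6 and 78.6 CPM in pulldowns (−0.52 ± 0.18 SE, adjusted p = 0.035). In the DHPG experiment Srp72 inputs held 105, 120.2 and 115 CPM and pulldowns 48.03, 45.6 and 44.3 CPM. Of the membrane receptor, Srpr had 0.07 and Srprb 0.32 at rest, with 95% intervals of −0.36 to 0.50 and −0.06 to 0.70, and the only call among the 7 comparisons was Srpr with DHPG (−0.25 ± 0.11 SE, adjusted p = 0.039), which was lost with the replicate block (adjusted p = 0.059 in edgeR).

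Within the Sec61 channel, the pore subunits Sec61a1 and Sec61a2 were above their inputs in all 19 pairs and the small subunit Sec61b below in all 19. Sec61a1 pulldowns at rest held 443, 482 and 499 CPM against 273, 303 and 284 CPM in the inputs (0.76 ± 0.24 SE, adjusted p = 0.023), and its paralogue Sec61a2 held 233, 189.8 and 221 against 149.5, 119 and 159.8 CPM (0.62 ± 0.24 SE, adjusted p = 0.055, short of the threshold, and adjusted p = 0.00019 in edgeR with the replicate block). Sec61b, a tail-anchored subunit of the channel, went the other way, with 34.8, 42.8 and 42.9 CPM in inputs and 14.3, 18.0 and 19.04 CPM in pulldowns (−1.21 ± 0.39 SE, adjusted p = 0.028). Sec61b and Alg2 are neighbours on chromosome 4, with Alg2 at 47465067 to 47474333 on the minus strand and Sec61b at 47474658 to 47483242 on the plus strand, and they moved in opposite directions in every pair. Sec63, a J-domain protein that brings the chaperone BiP to the channel, had 39.3, 46.6 and 42.9 CPM in inputs and 82.3, 76.4 and 75.2 CPM in pulldowns (0.90 ± 0.21 SE, adjusted p = 0.0058), and every pulldown lay above every input. In the depolarized knockdown Sec63 went from 26.9 and 33.6 to 93.9 and 90.7 CPM (1.73 ± 0.20 SE, adjusted p = 7.1e-08). Its partner Sec62 was called lower with DHPG (−0.20 ± 0.08 SE, adjusted p = 0.019) and higher in the knockdown (0.62 at rest and 0.45 after KCl). Sec61g had no count in 1 depolarized TurboID-PSD95 pulldown (replicate 1) and 1 resting knockdown pulldown (replicate 2) and was called only with DHPG (−1.42 ± 0.47 SE, adjusted p = 0.0096).

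Of the 4 TRAP genes, 1 was called lower at rest with TurboID-PSD95, 2 after KCl and 3 with DHPG, where 13.5%, 4.39% and 39.3% of all genes were called lower and 25.0%, 12.6% and 79.8% in either direction, and none was called higher outside the knockdown. With the replicate block 3 were lower at rest and 3 after KCl, where the block called 41.9% and 34.6% of all genes in either direction. Ssr2 had 227, 267 and 221 CPM in resting inputs and 133, 162 and 159 CPM in pulldowns (−0.62 ± 0.19 SE, adjusted p = 0.023), with no overlap. Ssr1, the alpha subunit, had −0.42 (95% interval −0.84 to 0.004) and Ssr3 −0.44 (95% interval −0.88 to −0.00022) without a call at rest, while the block gave adjusted p = 0.041 and 0.024 in edgeR. With DHPG Ssr1 was below its inputs in each replicate, with 98.4, 104 and 97.7 CPM in inputs and 39.6, 46.8 and 38.9 CPM in pulldowns (−1.05 ± 0.09 SE, adjusted p = 3.2e-09), and Ssr2 and Ssr3 were called lower too. Ssr4, the delta subunit, was called lower after KCl (−0.67 ± 0.20 SE, adjusted p = 0.03) but not at rest (0.03, 95% interval −0.38 to 0.43) or with DHPG (0.09).

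Of the 5 signal peptidase genes, 1 was called lower at rest and 3 with DHPG, where 13.5% and 39.3% of all genes were called lower. Calls in either direction were 25.0% and 79.8% of all genes. Spcs1, a small accessory subunit, had 62.2, 82.1 and 77.4 CPM in resting inputs and 28.8, 42.4 and 20.5 CPM in pulldowns (−1.21 ± 0.40 SE, adjusted p = 0.029), and in the resting knockdown 83.6 and 87.4 CPM against 20.5 and 17.9 CPM (−2.02 ± 0.19 SE, adjusted p = 3.3e-09). It was called lower in 6 of the 7 comparisons, all but depolarized TurboID-PSD95 (−0.91 ± 0.39 SE, adjusted p = 0.11), where it passed with the replicate block (adjusted p = 0.0038 in edgeR). Spcs3, which supports the catalytic subunits, was called in none, with log2 fold changes of 0.10 to 0.35. Of the catalytic paralogues, Sec11a was called higher in the depolarized knockdown (0.59 ± 0.23 SE, adjusted p = 0.038) and Sec11c lower there (−0.65 ± 0.23 SE, adjusted p = 0.019).

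Of the 10 oligosaccharyltransferase genes, the 2 catalytic subunits were called higher and 2 small subunits lower at rest, and with DHPG 2 were higher and 5 lower. Of all genes, 25.0% were called at rest and 79.8% with DHPG. With the replicate block 4 were higher and 4 lower at rest, where the block called 41.9% of all genes in either direction. Stt3a, on chromosome 9 at 36729344 to 36767679, had 122.9, 88.4 and 91.7 CPM in resting TurboID-PSD95 inputs and 351, 249 and 298 CPM in pulldowns (1.60 ± 0.38 SE, adjusted p = 0.0069). Every pulldown lay above every input. With Pan-TurboID the same gene went from 122.6, 97.7 and 124 to 332, 302 and 307 CPM (1.5 ± 0.38 SE, adjusted p = 0.024), and with DHPG from 138, 140.1 and 147 to 400.4, 384 and 315 CPM (1.58 ± 0.08 SE, adjusted p = 5.4e-12). Depolarized TurboID-PSD95 libraries spread more widely, from 232, 95.8 and 151 CPM in inputs to 623, 195 and 383 CPM in pulldowns, and there the lowest pulldown lay below the highest input although each pulldown exceeded its own input. Stt3b had 131, 127 and 149.7 CPM in resting inputs and 319, 309 and 311 CPM in pulldowns (1.24 ± 0.27 SE, adjusted p = 0.0049). Ddost, a scaffold subunit of the complex, was not called at rest (−0.58 ± 0.22 SE, adjusted p = 0.055, and adjusted p = 0.0045 with the replicate block) but was lower with DHPG, from 279, 279 and 262 to 90.9, 97.1 and 100.3 CPM (−1.30 ± 0.07 SE, adjusted p = 4.0e-12). It was lower in both knockdown comparisons too, at −1.14 and −1.49. Dad1, a small membrane subunit, was lower at rest with 96.8, 158 and 109 CPM in inputs and 59.97, 64.3 and 37.6 CPM in pulldowns (−1.12 ± 0.32 SE, adjusted p = 0.016). Rpn1 was not called at rest (−0.16, 95% interval −0.50 to 0.19), and was called lower with DHPG (−0.14 ± 0.06 SE, adjusted p = 0.03), a call lost with the replicate block (adjusted p = 0.064 in edgeR). Of the oxidoreductase paralogues, Tusc3 was called in no comparison (log2 fold changes of −0.15 to 0.34), although the replicate block called it higher at rest with both baits (adjusted p = 0.044 with TurboID-PSD95 and 0.023 with Pan-TurboID in edgeR), and Magt1 was called once, higher in the resting knockdown, with 31.5 and 24.2 CPM in inputs and 36.9 and 55.9 CPM in pulldowns (0.83 ± 0.23 SE, adjusted p = 0.0048).

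Rrbp1 had the largest fold change upwards of the 48 members in the depolarized TurboID-PSD95, DHPG and both knockdown comparisons. With the trend over CDS length removed, Rrbp1 was still highest in both knockdown comparisons, while with DHPG Alg2 stood highest at 1.26. For depolarized TurboID-PSD95 the highest value of a member was then 1.49, and the rank of Rrbp1 there is not given. Resting TurboID-PSD95 inputs of Rrbp1 held 110.1, 82.8 and 73.8 CPM and its pulldowns 216, 158 and 228 CPM (1.20 ± 0.22 SE, adjusted p = 0.0029). With DHPG the inputs held 57.0, 63.1 and 61.8 CPM and the pulldowns 214, 205 and 206 CPM (1.99 ± 0.07 SE, adjusted p = 1.0e-13). In the resting knockdown 63.7 and 73.9 CPM in inputs faced 397 and 361 CPM in pulldowns (2.57 ± 0.16 SE, adjusted p = 2.4e-12), and in the depolarized knockdown 56.0 and 54.9 faced 383 and 228 CPM (2.57 ± 0.18 SE, adjusted p = 1.1e-11). The groups did not overlap in any of these. Whether the knockdown values differ from those without knockdown was not tested, since the experiments differ. Ckap4, a protein that shapes ER sheets, was not called at rest (0.08, 95% interval −0.46 to 0.62) and was called higher in the knockdown only (0.51 at rest and 0.47 after KCl).

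**Figure D2:**
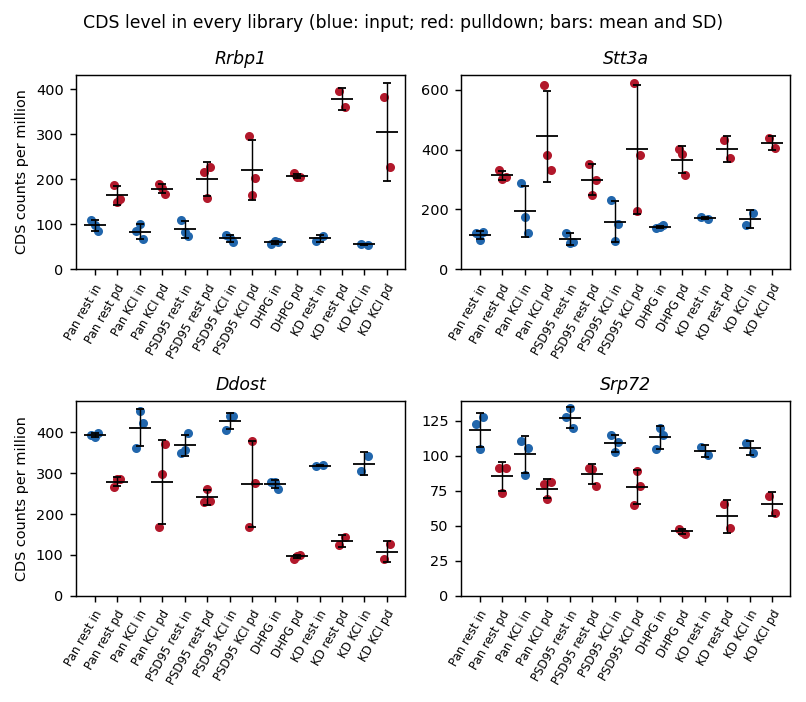
CPM in every library (points) with the group mean and SD (bars) for Rrbp1, Stt3a, Ddost and Srp72, in inputs (in, blue) and pulldowns (pd, red) of each bait and treatment. Rrbp1 and Stt3a pulldowns lie above their inputs and Ddost and Srp72 pulldowns below them in all 19 pairs.

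Of the 13 sugar-building enzymes, 6 were called higher and 1 lower at rest with TurboID-PSD95, and with DHPG 10 were called higher and 2 lower, where 11.5% of all genes were called higher and 13.5% lower at rest, and 40.5% higher and 39.3% lower with DHPG. After depolarization 3 were called higher with TurboID-PSD95, where 12.6% of all genes were called in either direction. With Pan-TurboID 3 were higher and 1 lower at rest (9.56% of all genes in either direction) and none was called after depolarization (8.83%). In the knockdown 8 were higher at rest and 4 after KCl, where 45.5% and 48.8% of all genes were called in either direction. With the replicate block 9 were higher and 1 lower at rest with each bait, 6 and 1 after depolarization with TurboID-PSD95, and 6 and 0 with Pan-TurboID. The block called 41.9% and 34.6% of all genes with TurboID-PSD95 at rest and after depolarization, and 32.9% and 32.0% with Pan-TurboID. Alg2 pulldowns held 529, 538 and 680.5 CPM at rest against 340.3, 346 and 306 CPM in the inputs (0.85 ± 0.21 SE, adjusted p = 0.0068), and 929, 853 and 863 against 428, 416 and 396 CPM with DHPG (1.30 ± 0.06 SE, adjusted p = 1.1e-12). Dpagt1, which starts the sugar chain, went from 20.3, 17.7 and 20.0 to 33.4, 38.2 and 29.8 CPM at rest (0.85 ± 0.28 SE, adjusted p = 0.029). The glucosyltransferases Alg6, Alg8 and Alg10b and the mannosyltransferase Alg9 were called higher at rest with log2 fold changes of 1.29 ± 0.47, 1.30 ± 0.35, 0.90 ± 0.27 and 1.13 ± 0.28 (SE). Alg5, which makes the glucose donor, was the exception, with 13.5, 22.5 and 15.6 CPM in resting inputs and 3.63, 2.92 and 4.88 CPM in pulldowns (−2.19 ± 0.37 SE, adjusted p = 0.002), but its longest transcript carries a truncated coding sequence, and with the transcript of highest count the value was 0.05 at rest. Alg13 and Alg14 together form the enzyme for the second sugar, and of them only Alg14 was called, lower with DHPG (−0.36 ± 0.16 SE, adjusted p = 0.044), and this call was lost with the replicate block (adjusted p = 0.054 in edgeR).

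The direction of a member followed the length of its coding sequence, as it did for genes at large. Across the 48 members, log2 CDS length and the resting TurboID-PSD95 log2 fold change had a Pearson correlation of 0.779 (Spearman 0.722), where all 13019 genes had 0.517 (0.532), and with DHPG the values were 0.736 over the members and 0.618 over 12273 genes. These are correlations across genes of the same libraries, which are not independent. Of the 19 members under 700 nt none was called higher and 9 lower at rest, and of the 29 longer members 11 were called higher and 2 lower (Srp54a and Srp72). The 9 include Alg5, which entered with 255 nt, while its transcript of highest count has 975 nt. The correlations and this split are not given for transcripts of highest count. Of all genes, 23 were higher and 913 lower among 2559 short ones, and 1476 higher and 847 lower among 10460 longer ones. In the DHPG libraries 15 of the 19 short members were lower, and the 29 longer ones had 16 higher and 8 lower, where all genes had 113 higher and 1975 lower among 2368 short ones and 4854 higher and 2846 lower among 9905 longer ones. With the trend over length removed, 15 members were called at rest with TurboID-PSD95 (14.2% of all genes), 5 after depolarization (4.56%), 6 and 0 with Pan-TurboID (3.20% and 2.38%), 36 with DHPG (67.4%), and 26 and 20 in the knockdown (32.9% and 35.4%). Stt3a kept a value of 1.29 (adjusted p = 0.0091) at rest and Rrbp1 0.67 (adjusted p = 0.016), and with DHPG 1.16 and 1.14. Ssr2 at rest moved from −0.62 to 0.0050, and Krtcap2, a small oligosaccharyltransferase subunit, from −0.59 to 0.24.

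**Figure D3:**
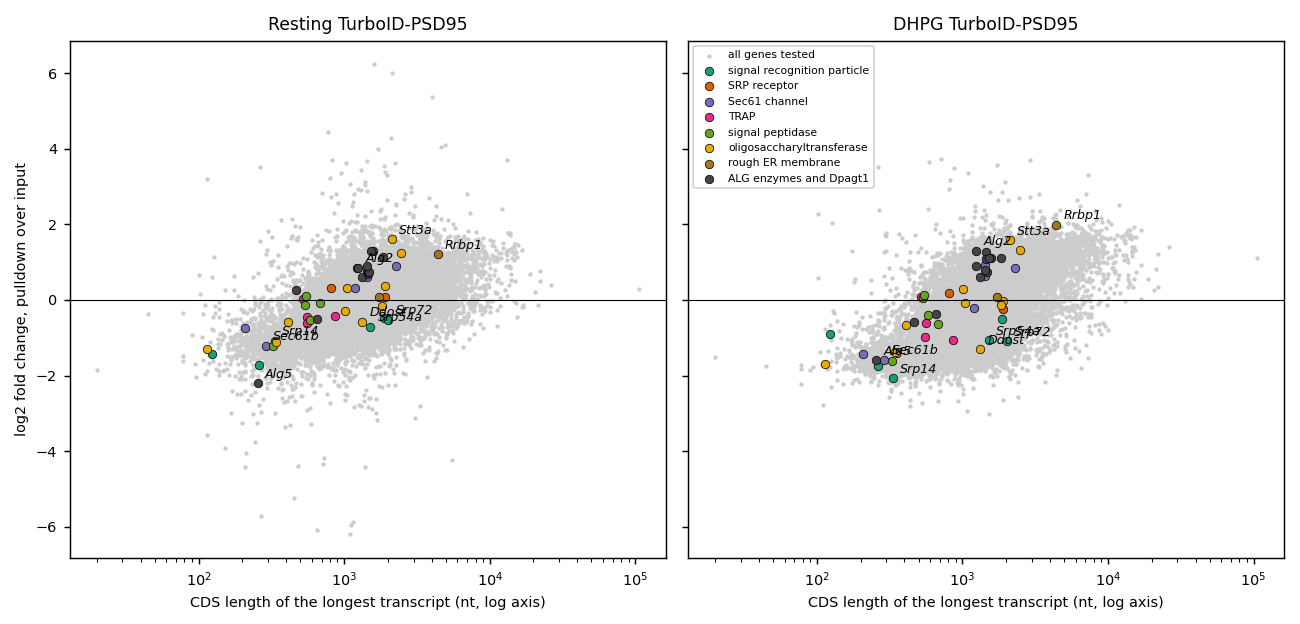
Log2 fold change of pulldown over input against CDS length in nt (log axis) for resting TurboID-PSD95 (left) and DHPG (right). Grey points are all genes tested and coloured points the members by complex. Short members such as Srp14 and Sec61b lie below 0 and long ones such as Stt3a and Rrbp1 above it, along the trend of the grey points, while Ddost and Srp72 lie below 0 although their coding sequences are longer than the members' median.

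Enrichment also changed along the coding sequence. CDS segments were assigned to a first and a last part by their midpoint, and 45 members had at least 10 counts per library on average in both parts. In the resting TurboID-PSD95 pairs 38 of the 45 had a higher pulldown to input ratio in the last part than in the first in every replicate, where 66.8% of 9766 genes did, with a median difference of 1.32 on the log2 scale against 0.92 for all genes. The counts were 38 after depolarization (60.7% of all genes), 39 and 36 for Pan-TurboID at rest and after depolarization (65.3% and 61.6%), 39 with DHPG (76.6%), and 33 and 41 in the resting and depolarized knockdown (68.4% and 72.0%). In all 19 pairs together the last part was higher for 24 of the 45 members (53.3%) and for 2860 of 9766 genes (29.3%). Alg2 has 2 coding segments. At rest with TurboID-PSD95 the ratio was −1.55 ± 0.32 in the first segment (348 nt) and 1.47 ± 0.35 in the second (900 nt), and with DHPG −2.08 ± 0.44 and 1.51 ± 0.06 (log2, SD, n = 3). The mean ratio of Stt3a lay below 0 in its first 3 segments at rest (−1.75 ± 1.15, −1.47 ± 1.75 and −0.83 ± 0.38), with an SD larger than the mean in the second, and above 0 from the fourth on, between 1.03 and 2.57. Ssr3, the gamma subunit of TRAP, went from −1.46 ± 0.68 in the first part to 0.82 ± 0.08 in the last. Ddost did not share the step: its parts stood at −1.60 ± 0.21 and −1.43 ± 0.06 with DHPG. Rrbp1 was above its input in the first part too, at 1.03 ± 0.06 with DHPG against 2.39 ± 0.17 in the last, and its repeat-bearing first segment had 0.91 ± 0.05.

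**Figure D4:**
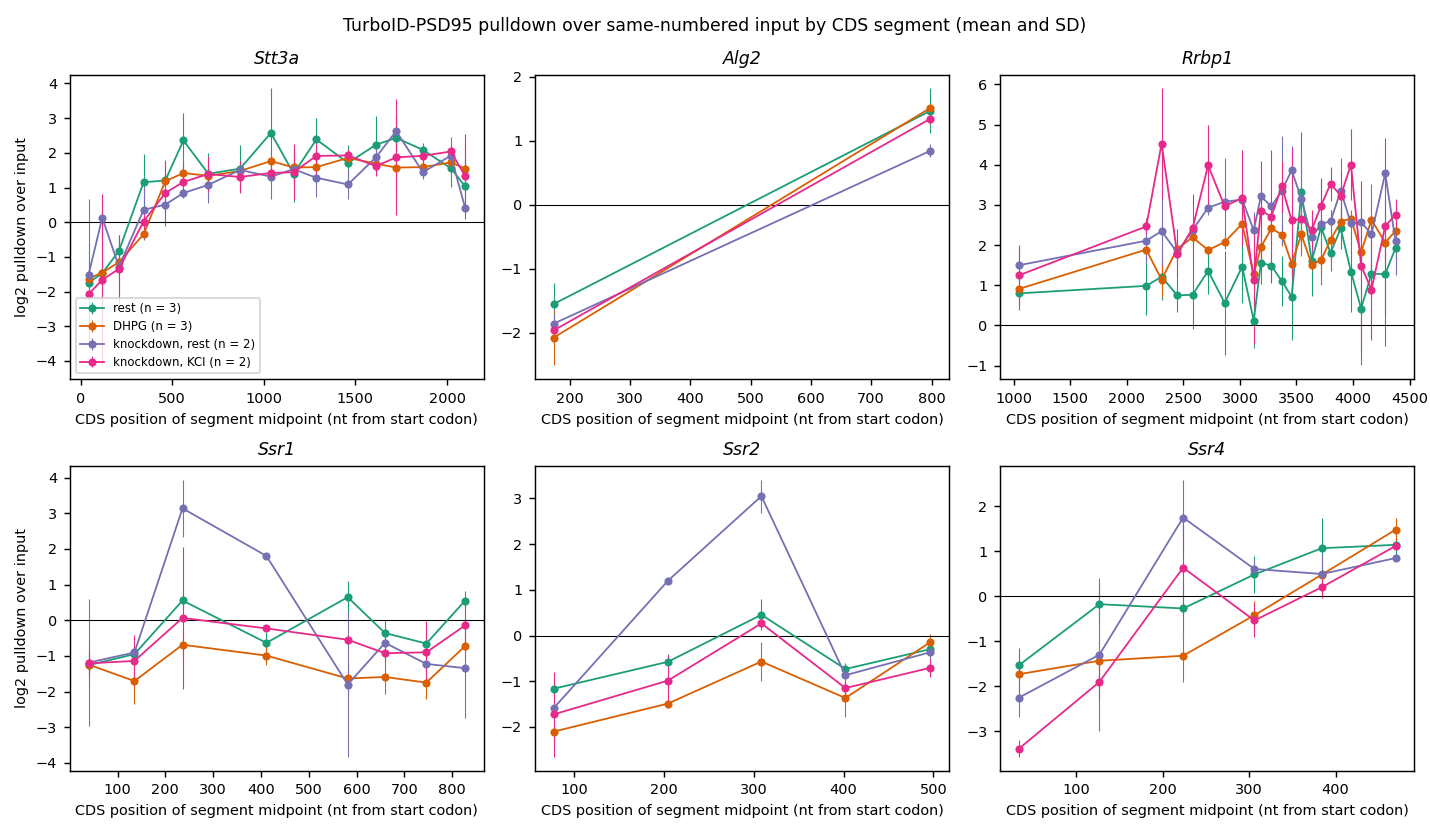
Log2 ratio of pulldown to same-numbered input for each CDS segment of 6 members, plotted at the segment's midpoint in nt from the start codon, for 4 TurboID-PSD95 groups (points are means and bars SD over 2 or 3 replicates). Stt3a and Alg2 start below 0 and end above it in all 4 groups, and in Ssr1 and Ssr2 the resting knockdown (2 replicates) is highest in 2 neighbouring segments.

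The baits were compared directly by asking whether the TurboID-PSD95 enrichment exceeded the Pan-TurboID enrichment over rest and KCl together. No member passed in edgeR, and 0.00768% of all genes did (1 gene). At an unadjusted p of 0.05 in the fit without a replicate term Rrbp1 alone passed, with a difference of 0.50 (95% interval 0.05 to 0.95), and DESeq2 called none. With the replicate block 0 members passed at the FDR and 2 at an unadjusted p of 0.05 in edgeR. Intervals here are from the fit without the block. Stt3a had a difference of 0.11 (−0.65 to 0.88), Srp14 −0.08 (−0.66 to 0.50) and Alg2 0.16 (−0.26 to 0.58). The interval was widest for Alg13, a low gene (−0.63 to 3.07), and a difference of that size was not detectable there. Its resting Pan-TurboID ratios were −2.31, 2.35 and −0.51 on the log2 scale in replicates 1 to 3, and the part of depth in this spread was not tested. Depolarization did not change the TurboID-PSD95 enrichment of any member at the threshold in edgeR either, where 0.0% of all genes were called. At an unadjusted p of 0.05 in the fit without a replicate term, 2 members passed, Alg5 (1.33, 0.33 to 2.33) and Ssr4 (−0.70, −1.27 to −0.12), and DESeq2 called none. With the transcript of highest count only Ssr4 of the members passed at that unadjusted p. The replicate block left 0 members at the FDR and 4 at an unadjusted p of 0.05 in edgeR.

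In the inputs, 8 members rose with KCl and Ckap4 fell, with values in parentheses that are log2 changes from rest. Over both baits 9 members passed, 8 higher and 1 lower, where 15.4% of all genes were called, and the median was 0.27 on the log2 scale over the members and −0.01 over all genes. Of the 4 TRAP genes 3 rose. Ssr2 went from 241, 229.7 and 215 CPM at rest to 278, 322 and 381 CPM after KCl in Pan-TurboID inputs, and from 227, 267 and 221 to 327, 335 and 349 CPM in TurboID-PSD95 inputs (0.54 ± 0.14 SE, adjusted p = 0.0071), and every depolarized input lay above every resting one. Ssr3 and Ssr4 rose by 0.60 ± 0.15 and 0.52 ± 0.14 (SE), and Ssr1 had 0.06. Dad1 (0.71 ± 0.22), Krtcap2 (0.60 ± 0.15), Srp14 (0.58 ± 0.20), Alg2 (0.53 ± 0.14) and Srprb (0.38 ± 0.13) rose too. Ckap4 fell from 106, 138 and 139 to 52.2, 88.9 and 60.1 CPM in Pan-TurboID inputs and from 110.2, 131 and 126 to 76.2, 84.3 and 56.9 CPM in TurboID-PSD95 inputs (−0.81 ± 0.19 SE, adjusted p = 0.0038), again without overlap. Length moved with these changes as well, since 6 of the 19 short members rose and none fell, where 319 rose and 12 fell among 2559 short genes in all. The correlation of log2 length with the change was −0.589 over the members and −0.275 over all genes. The part of length in the change of these inputs was not tested. Members called fell to 0 when replicate 3 was dropped and to 5 when replicate 2 was. Dropping replicate 1 instead raised them to 12. How many of all genes passed in these smaller fits is not given. A general loss of calls and one among the members can therefore not be told apart. The methods state that resting and activated samples of a replicate were processed together, and with the replicate as a block 14 members passed, 11 higher and 3 lower, where 19.5% of all genes did.

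The knockdown inputs gave a separate set of libraries for the same treatment. There 14 members passed, 6 higher and 8 lower, where 19.3% of all genes were called. Of these, 5 were called in both sets, all 5 in the same direction (55.6% of the 9 and 35.7% of the 14): Srp14, Dad1, Ssr3, Krtcap2 and Ckap4. Over all genes the overlap was 1023, which is 51.2% of the 1999 and 43.3% of the 2362 called, and 99.6% of it had the same direction, so the members' overlap was near that of all genes. Srp14 went from 64.3 and 76.9 to 197 and 133 CPM (1.25 ± 0.18 SE, adjusted p = 1.3e-05) and Ckap4 from 128 and 139 to 67.9 and 83.2 CPM (−0.82 ± 0.15 SE, adjusted p = 0.00035). Stt3b (−0.61), Sec63 (−0.76), Sec61a1 (−0.46) and Sec61a2 (−0.47) fell in these inputs. With single knockdown inputs left out, 5 to 8 members were called (5 without the replicate 1 input of either state), and with the length trend removed 8 were (16.3% of all genes). In the TurboID-PSD95 pulldowns of the KCl experiment 2 members passed, Srp14 (1.00 ± 0.29 SE, adjusted p = 0.035) and Alg5 (1.90 ± 0.37 SE, adjusted p = 0.002), where 6.59% of all genes were called. In the Pan-TurboID pulldowns 3 passed, Krtcap2 (0.83), Alg5 (1.12) and Ckap4 (−0.92), where 5.03% of all genes were called. With the transcript of highest count Alg5 had 0.93 (adjusted p = 0.020 in edgeR) in TurboID-PSD95 pulldowns and 0.61 (adjusted p = 0.15) in Pan-TurboID pulldowns, where its call was lost. Without replicate 3 none of these pulldown calls was left, without replicate 2 the counts were 0 and 1, and without replicate 1 the TurboID-PSD95 count was 6. With the replicate as a block 5 members passed in the pulldowns of each bait, 4 higher and 1 lower, where 9.76% of all genes did with TurboID-PSD95 and 7.56% with Pan-TurboID.

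**Figure D5:**
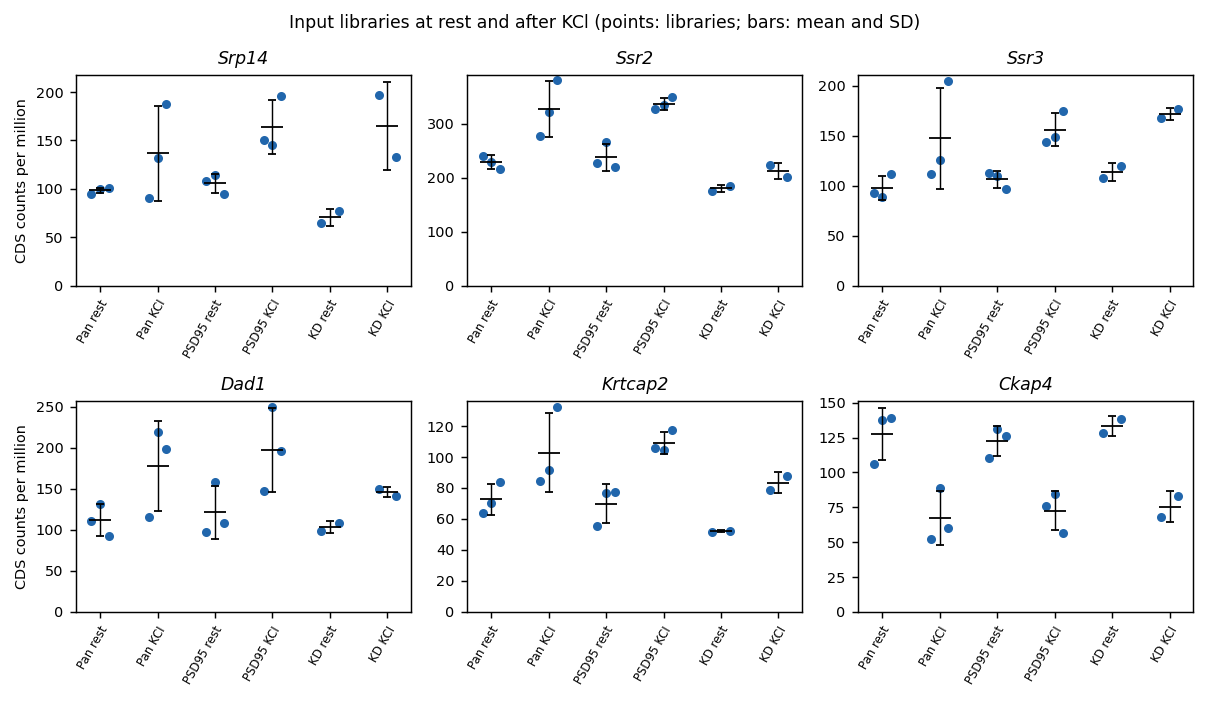
CPM in input libraries at rest and after KCl (points are libraries, bars the mean and SD) for 6 members, by bait and, for KD, in the eIF4G2 knockdown. Ssr2, Ssr3 and Krtcap2 are higher after KCl and Ckap4 lower in each of the 3 sets of inputs, and for Ssr3 and Srp14 the depolarized Pan-TurboID inputs spread most.

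In the knockdown pulldowns the whole-gene counts of Ssr1 and Ssr2 of TRAP fell with KCl, and this fall lay in 2 adjacent coding segments of each gene. Over the other segments the pulldown means went from 30.2 CPM at rest to 39.3 CPM after KCl for Ssr1 and from 63.3 to 66.5 CPM for Ssr2. Of the 48 members 11 passed between depolarized and resting knockdown pulldowns, 2 higher and 9 lower, where 22.2% of all genes were called (7 members without the resting pulldown of replicate 1 or of replicate 2). Ssr1 pulldowns held 232 and 266 CPM at rest and 73.6 and 69.1 CPM after KCl (−1.79 ± 0.14 SE, adjusted p = 3.6e-10), while its inputs held 114 and 117 CPM at rest and 114 and 104 CPM after KCl. Ssr2 pulldowns went from 289 and 306 to 96.9 and 122 CPM (−1.44 ± 0.12 SE, adjusted p = 2.6e-09), while its inputs went from 176 and 184 to 223 and 202 CPM. In the test of the difference in enrichment itself, depolarized minus resting, 4 members passed, where 3.77% of all genes were called. Ssr1 (−1.73 ± 0.19 SE, adjusted p = 1.0e-06), Ssr2 (−1.70 ± 0.17 SE, adjusted p = 2.4e-07) and Ssr4 (−0.99 ± 0.27 SE, adjusted p = 0.035) were less enriched after KCl and Rpn2, an oligosaccharyltransferase scaffold subunit, was more enriched (0.82 ± 0.14 SE, adjusted p = 0.00077). Rpn2 pulldowns held 269.6 and 254 CPM at rest and 399 and 341 CPM after KCl. Ssr1, Ssr2 and Rpn2 kept their call with each of the 8 knockdown libraries left out in turn. Ssr4 kept it only without the resting pulldown of replicate 1 (adjusted p = 0.0031), had 0.055 to 0.19 without any other library, and had 0.097 with the length trend removed. In the KCl experiment the same difference was 0.19 for Ssr1 (95% interval −0.40 to 0.78) and 0.01 for Ssr2 (−0.55 to 0.56), and the difference between the experiments was not tested.

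The resting knockdown excess of Ssr1 and Ssr2 lay within a short stretch of each coding sequence. Ssr1 (chromosome 13, 37966605 to 37994217, minus strand) has 8 coding segments, and segments 3 and 4 together span 351 nt. Ssr2 (chromosome 3, 88575876 to 88588419, plus strand) has 5, and segments 2 and 3 together span 208 nt. These segments were picked after their values were seen, so their values are a description. The lines below show where the segments meet, read from GENCODE M21 transcripts on mm10, to place the stretch in each transcript. Lower case gives the last 15 bases of the upstream segment and capitals the first 15 bases of the downstream one.
Ssr1 segments 3 and 4: ttgtaaaaggagaagATTTTCCGGCAAACA
Ssr2 segments 2 and 3: ggaccggattgccccCGCTAGCAATGTCTC
In resting knockdown pulldowns the Ssr1 stretch held 199 and 239 CPM, and after KCl 39.7 and 24.4 CPM. Ssr2 held 224 and 244 CPM in its stretch at rest and 36.2 and 49.3 CPM after KCl. On the log2 scale the pulldown to input ratio at rest was 2.06 ± 0.10 in the Ssr1 stretch and −1.07 ± 0.19 in its other segments, and 2.13 ± 0.16 and −0.996 ± 0.0082 for Ssr2 (SD, n = 2). The difference between depolarized and resting knockdown was −2.27 and −2.52 in the stretches of Ssr1 and Ssr2, and 0.17 and −0.24 over their other segments. In resting TurboID-PSD95 pairs without knockdown the Ssr1 stretch had −0.42 ± 0.24 and the Ssr2 stretch −0.15 ± 0.20 (SD, n = 3). Segment 2 of Rpn1 showed the same kind of local excess in the resting knockdown, 2.69 above the median segment of its transcript on the log2 scale. Segment 3 of Ddost (2.11), segment 1 of Srp14 (1.87) and segment 4 of Ssr3 (1.72) stood above theirs too. Each of these values exceeds that of segment 2 of Ssr2 (1.56), so local excess was not confined to Ssr1, Ssr2 and Rpn1. Whether the removal of duplicates or of reads that align in several places touched these stretches, and whether their counts come from a repeated fragment, was not tested.

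Footprints in 5′ UTRs were compared between rest and KCl. Of 45 members tested none changed with KCl in the inputs, where 0.442% of all genes were called. Only Ssr2 passed at an unadjusted p of 0.05 (1.03, 95% interval 0.19 to 1.87), and DESeq2 called none. In the TurboID-PSD95 pulldowns 1 of 45 passed, where 0.275% of all genes were called. This was Ssr2 again, with 3, 8 and 4 counts at rest and 11, 85 and 40 after KCl in the 5′ UTR (3.00 ± 0.71 SE, adjusted p = 0.029). The call was lost without replicate 2 or 3, and with the replicate as a block 3 members passed, all higher, where 2.08% of all genes did. In these pulldowns 40 of the 45 members had a value above 0, with a median of 0.69 over the members and 0.65 over all genes, under the scaling from coding sequences. With 5′ UTR totals in its place 21 of the 45 did, and the medians were −0.03 and −0.05.

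Beyond the 48 members, 67 genes of the wider pathway (translocation helpers, dolichol and mannose supply, glycan trimming, folding enzymes and stress sensors) gave 4 called higher and 18 lower at rest with TurboID-PSD95, where 25.0% of all genes were called, 21 and 34 of 66 with DHPG (79.8%), and 12 and 18 in the resting knockdown (45.5%). The counts were 5 and 9 for depolarized TurboID-PSD95 (12.6% of all genes), 2 and 8 for resting (9.56%) and 0 and 7 for depolarized Pan-TurboID (8.83%), and 12 and 25 for the depolarized knockdown (48.8%). With KCl 12 rose and 2 fell in the inputs, where 15.4% of all genes were called. Hspa5, the chaperone BiP, rose by 0.91 ± 0.13 (SE) and Eif2ak3, the stress sensor PERK, by 1.17 ± 0.16, while Mogs, the glucosidase that trims the outermost glucose, fell by 1.04 ± 0.17. In the knockdown inputs these values were 0.98, 1.17 and −1.20. KCl gave 6 higher and 1 lower in TurboID-PSD95 pulldowns (6.59% of all genes), 4 and 1 in Pan-TurboID pulldowns (5.03%), 10 and 4 in knockdown inputs (19.3%) and 7 and 11 in knockdown pulldowns (22.2%), and the difference between knockdown states 1 and 7 (3.77%). Of the protein disulfide isomerases, Pdia3 was lower in the pulldown at rest with TurboID-PSD95, at −0.93. P4hb was lower with DHPG, at −1.67, and in the depolarized knockdown, at −1.32. The enrichment of P4hb differed between the knockdown states by −1.34, so it was not equally low in both. Emc3, a subunit of the ER membrane protein complex, was higher at rest with TurboID-PSD95, at 0.94. Emc7 of the same complex was lower after depolarization with TurboID-PSD95, at −0.94, and with Pan-TurboID at −0.89 at rest and −0.91 after depolarization, and its enrichment differed between the knockdown states by −2.27.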

How the data were processed

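The authors trimmed reads with Rfastp, removed molecular identifiers, aligned them to mm10 with Rsubread, and with plastid counted the 5′ end of each footprint in segments of UCSC known genes. The deposited counts are whole-number counts per segment and transcript, with replicates not pooled. The RPKM values beside them were not used. The names of the alignments mark removal of rRNA and duplicates, and how strand and reads with several alignments were treated is not given in the sources used here. A 5′ end without an offset lies upstream of the ribosome's active site, so counts near segment ends may fall into the neighbouring segment.

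CDS counts of each gene's longest transcript were tested with the quasi-likelihood test of edgeR 4.0.16 (R 4.3.3), with TMM scaling, a filter on low counts and Benjamini-Hochberg adjustment over all genes tested, at an FDR of 0.05. The 24 libraries of the KCl experiment, the 6 of the DHPG experiment and the 8 of the knockdown experiment were fitted apart, without a term for the replicate, and no fit dropped or imputed a library. Same-numbered pulldowns and inputs come from the same lysate, since part of each was kept as input. In the KCl experiment their deviations from the group means correlated at 0.216 to 0.575 (12 of 12 pairs over 0.1), while the DHPG pairs lay at −0.119 to 0.034 and the knockdown pairs at 0.011 and 0.017, so the blocked counts stand beside the enrichment results of the KCl experiment, and for DHPG blocked values are given where a named call was lost. They also stand beside its comparisons of KCl with rest, since the methods state that both states of a biological replicate were processed together. CPM are CDS counts scaled to the same library total, and ratios along the coding sequence are log2 ratios of CPM with a pseudocount of 0.5 CPM. The depth of 2048604 to 14646402 CDS counts sets the precision, and intervals cover the spread between libraries only. The methods call the replicates of PL-Ribo-seq biological. No replicate pair differed by less than sampling noise. Chi-square per degree of freedom between replicates, a measure of spread against counting noise, was 1.49 to 1.93 for DHPG inputs and 2.90 to 9.45 for DHPG pulldowns. It was 2.83 to 4.54 in the knockdown and 8.75 to 49.5 in the KCl experiment. Adjusted p values and counts of calls are therefore not comparable between the experiments. The alternatives were DESeq2 1.42.0, the likelihood ratio test, other scaling, no filter, the transcript of highest count, the length trend removed, single libraries or replicates left out, and fits of the compared libraries alone.

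The 48 members, the wider list of 67 pathway genes and the marker lists were chosen with earlier results of these data known. Within each complex the text names members past the FDR first, by p, the paralogue pairs whatever their test, and at most 2 genes of the wider list per direction and comparison, by smallest p. Every column was mapped to a sample. The descriptions in the labels place DHPG inputs and knockdown libraries in the cytosol while the virus entry names TurboID-PSD95, which was used.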

Additional observations from a re-analysis of the deposited data

Results flagged for a closer look

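In the eIF4G2 knockdown, 4 members differed between rest and KCl in their pulldown enrichment by the interaction term of edgeR's quasi-likelihood fit. The depolarized minus resting log2 difference was −1.73 for Ssr1 and −1.70 for Ssr2, and the pulldown to input ratio was lower in both depolarized than in both resting replicates. It was −0.99 for Ssr4 and 0.82 for Rpn2, whose ratio was higher in both depolarized than in both resting replicates. For Ssr4 the ratio was lower in both depolarized (−0.83 and −0.82) than in both resting replicates (−0.20 and 0.48). Its call was lost in most fits without 1 library. Such fits leave a single library in a group, and whether fewer libraries or 1 library in particular made the difference was not tested. For Ssr1 and Ssr2 the difference lay in 2 neighbouring coding segments, which were picked after the values were seen. With 2 replicates a group, no value of a single library could be tested for standing apart.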

How the results depend on the processing

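Over 194 called values of single members, 2308 values under the alternatives kept direction and call in 1922 cases, lost the call in 364 and turned direction in 22. Without a low-count filter 4 members were called for depolarized Pan-TurboID over input (5.22% of all genes). Shares in parentheses below are those of all genes called under the same setting. DESeq2 called 19 members for depolarized TurboID-PSD95 over input (20.2%), 16 for resting (16.4%) and 13 for depolarized Pan-TurboID (17.3%), 7 for KCl in TurboID-PSD95 pulldowns (10.6%) and 2 for their 5′ UTRs (1.92%). The likelihood ratio test called 16 for resting Pan-TurboID (14.7%) and 5 for KCl in TurboID-PSD95 pulldowns (9.51%), and scaling by library totals 1 in the latter (6.30%). With the length trend removed the counts were 5 for depolarized TurboID-PSD95, 6 and 0 for resting and depolarized Pan-TurboID, and 8 for KCl in knockdown inputs. Fits of only the libraries compared called 0 for depolarized TurboID-PSD95 (0.0%), 25 and 0 for Pan-TurboID (32.4% and 0.0%), 15 for KCl in inputs (20.5%), and 0 for KCl in TurboID-PSD95 and Pan-TurboID pulldowns (1.00% and 3.65%).

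With the replicate block the counts were 25 for depolarized TurboID-PSD95, 29 and 21 for Pan-TurboID, 14 for KCl in inputs, 5 and 5 for KCl in TurboID-PSD95 and Pan-TurboID pulldowns, and 3 for the 5′ UTRs in TurboID-PSD95 pulldowns. It moved no other count of calls by over 1.5 times (36 for DHPG, 30 and 30 in the knockdown, 4 for the difference between its states). Between groups, same-numbered libraries of the KCl experiment correlated over 0.1 in 39 of 84 cases.

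Leaving out single replicates gave 0 to 20 for resting and 0 to 9 for depolarized TurboID-PSD95, 0 to 12 and 0 to 5 for Pan-TurboID, 0 to 12 for KCl in inputs, 0 to 6 and 0 to 3 for KCl in TurboID-PSD95 and Pan-TurboID pulldowns, 36 to 38 for DHPG, 24 to 28 and 24 to 30 for the resting and depolarized knockdown, 5 to 8 and 7 to 12 for KCl in knockdown inputs and pulldowns, 3 to 4 for the difference between knockdown states, and 0 to 2 for the 5′ UTRs in pulldowns. The count stayed at 0 for the bait difference, for KCl and enrichment and for the 5′ UTRs in inputs. Without replicate 3, at most 3 genes were called in the whole table for the 4 comparisons of a pulldown with its input in the KCl experiment. For the other fits the share of all genes is not given. A loss of calls across all genes and one among the members cannot be told apart there. In the knockdown the lone library left in a group was assumed to vary like the others.

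With the length trend removed, values turned to 0.066 for Srp19, 0.0050 for Ssr2 and 0.24 for Krtcap2 in resting TurboID-PSD95, and to 0.10 for Krtcap2 after depolarization. With DHPG they turned to 0.93 for Srp19, 0.44 for Sec11c, 0.27 for Ssr3, 0.022 for Spcs2, 0.14 for Ost4, 0.35 for Alg14, 0.45 for Krtcap2 and 0.14 for Sec61g. In the knockdown they turned to 0.24 for Ssr3 and 0.33 for Ost4 at rest, and to 0.16 for Ssr4, 0.13 for Sec11c, 0.13 for Ssr3, 0.89 for Ost4 and 0.089 for Krtcap2 after KCl. With the transcript of highest count Alg5 turned to 0.046 and 0.13 at rest with TurboID-PSD95 and Pan-TurboID and to 0.19 with DHPG. These are the 22 turns, and their cause, like that of the lost calls, was not tested. Depth limits genes with few counts, such as Alg13 and Sec61g, with means of 3.57 and 3.79 CPM and no count in 3 and 2 libraries.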
